A study of Mus musculus with 4 samples.

Results

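The genes followed here encode the MHC class II pathway of antigen presentation in mouse islets. They are H2-Aa, H2-Ab1 and H2-Eb1, the polypeptide chains of the class II molecules, Cd74, the invariant chain, H2-DMa and H2-DMb1, the chains of the peptide exchange factor H2-DM, and Ciita, the class II transactivator. They were chosen by symbol, with no measured value in the rule, and make up 7 of the 31053 genes counted. Pancreatic islets of male adult C57BL/6 mice (C57BL6/J in the study's methods) were pooled and split into 4 portions. The untreated portion has no stated time. The others were cultured for 6 h in medium holding human recombinant IL-1β, mouse IFN-γ or their combination (IL-1β + IFN-γ). All were then dissociated into cells for droplet-based single-cell RNA sequencing. The study asked how the cells of an islet respond to cytokines met in its inflammation. All 4 portions carry the same strain and the same mixed set of animals, and there is 1 library per condition, so no difference between conditions has a replicate check. No test was run. Every interval given is a 95% interval that covers counting error alone.

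Class II molecules present peptides from endocytosed material to CD4+ T cells and are made constitutively by macrophages, dendritic cells and B cells. The invariant chain binds newly made class II dimers, blocks their groove and routes them to endosomes, where cathepsins trim it and H2-DM exchanges its last fragment for peptide. CIITA does not bind DNA itself. It docks on a complex of RFX, CREB and NF-Y at the X and Y boxes of class II promoters, and in cells that are not professional presenters IFN-γ is known to switch Ciita on, with IRF1 acting on its promoter. In C57BL/6 mice the partner gene of H2-Eb1 is defective, so an H2-Eb1 transcript is no measure of a surface E molecule. The partner gene H2-Ea was not analysed here.

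The promoter letters on which the transactivator depends are shown because 3 genes of the group and a neighbouring class II gene share them. RefSeq promoter windows of GRCm38.p6, 250 bases before to 50 after a start, were at hand for 4 of the 7 members. They were searched on both strands for an X-box-like core, AACNNTGANG or AACNNNTGANG, followed within 15 to 35 bases by an inverted CCAAT box, TGATTGG. The letters were chosen after these promoters had been read. Capitals mark the core and then the inverted CCAAT box, 5′ to 3′ on the coding strand. The stretches lie at chr17:34287852-34287917 (minus strand, H2-Aa), chr17:34305763-34305827 (plus, H2-Eb1), chr17:34153084-34153149 (plus, H2-DMb1) and chr17:34145113-34145178 (plus, H2-DMb2, a neighbouring copy of H2-DMb1 outside the group).
H2-Aa: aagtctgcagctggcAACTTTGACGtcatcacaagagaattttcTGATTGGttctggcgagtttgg
H2-Eb1: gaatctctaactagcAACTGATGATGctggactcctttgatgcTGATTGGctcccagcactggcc
H2-DMb1: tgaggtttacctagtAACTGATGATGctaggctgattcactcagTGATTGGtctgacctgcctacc
H2-DMb2: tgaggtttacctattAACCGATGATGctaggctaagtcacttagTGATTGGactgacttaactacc

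The core began 79 bases before the RefSeq start of H2-Aa, 89 before that of H2-Eb1, 92 before H2-DMb1 and 121 before H2-DMb2. GENCODE starts differ. The stretch of H2-DMb1 lies inside its GENCODE span given below, and that of H2-DMb2 inside chr17:34143307-34151555. Of 32851 windows of 300 bases, 15 held the paired letters (0.0457%), and 5 of those 15 belonged to class II genes, the fifth being H2-Ob. The inverted CCAAT box alone was in 7.82% of windows and the core alone in 5.77%. Neither of the windows of H2-DMa nor that of Rfx5 held the pair, which says only that these letters are not there. In GENCODE M21 on mm10, H2-DMa (ENSMUSG00000037649, chr17:34119541-34139101), H2-DMb1 (ENSMUSG00000079547, chr17:34153072-34160230), H2-Ab1 (ENSMUSG00000073421, chr17:34257689-34269419), H2-Aa (ENSMUSG00000036594, chr17:34282744-34287823) and H2-Eb1 (ENSMUSG00000060586, chr17:34305867-34316674) lie together in the MHC. Ciita (ENSMUSG00000022504) lies apart at chr16:10480059-10528418, and Cd74 is ENSMUSG00000024610.

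The untreated, IL-1β, IFN-γ and IL-1β + IFN-γ libraries held 3486, 2911, 3694 and 2480 barcodes with 50731370, 20056630, 31209339 and 25716645 unique molecular identifiers (UMIs, counted molecules). After filtering on detected genes and mitochondrial UMIs, 7471 of 12571 barcodes were kept, fewer than the study states for its own filter. They were 1521, 2018, 2122 and 1810 cells with medians of 15454, 7462.5, 9615 and 11123.5 UMIs. The untreated library was the deepest per cell. Barcodes found in more than 1 library numbered 16, with 1 to 4 per pair of libraries.

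Cells were clustered without the 7 genes or their pathway, and clusters were called by marker genes, endocrine cells by their leading hormone. Macrophage-like cells numbered 154 (38, 38, 47 and 31 in the library order above), endothelial-like 137, mesenchymal-like 111 and ductal-like 82. β-like cells numbered 4978 (1142, 1226, 1312 and 1298), α-like 858 and δ-like 314. The names are rebuilt and may differ from those of the study. All 12 macrophage markers were detected in the macrophage-like cells, led by Lyz2 or C1qb. Markers of other presenting cells were few in them. The 8 dendritic cell markers summed to 12, 20, 31 and 7 UMIs, with Flt3, Xcr1 and Cd209a at 0 in every library. The most abundant were Batf3 (8, 3, 11 and 6 UMIs) and Ccr7, which marks migrating dendritic cells (3, 15, 17 and 0 UMIs). Their part in the results was not tested. Of 6 B cell markers only Cd79b was seen, with 3, 3, 4 and 0 UMIs, and all 7 T and NK cell markers were at 0.

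Class II chain transcripts of untreated islets lay almost wholly in the 38 macrophage-like cells, which held 97.0% of 626 H2-Aa UMIs and 96.1% of 1860 Cd74 UMIs of that library. Over all 4 libraries macrophage-like cells held 89.8% of 2557 H2-Aa UMIs, 86.9% of 2295 H2-Ab1 UMIs, 91.2% of 1516 H2-Eb1 UMIs and 79.6% of 6801 Cd74 UMIs. For the exchange factor they held 57.6% of 387 H2-DMa UMIs and 64.1% of 323 H2-DMb1 UMIs. The order depended on the library, since with both cytokines they held 62.2% of the Cd74 UMIs against 69.1% for H2-DMa and 77 of 110 UMIs for H2-DMb1. Ciita was distributed otherwise, with 12.9% of its 373 UMIs in macrophage-like cells and 48.3% in β-like cells. Macrophage-like cells were 2.06% of the cells kept.

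**Figure D1:**
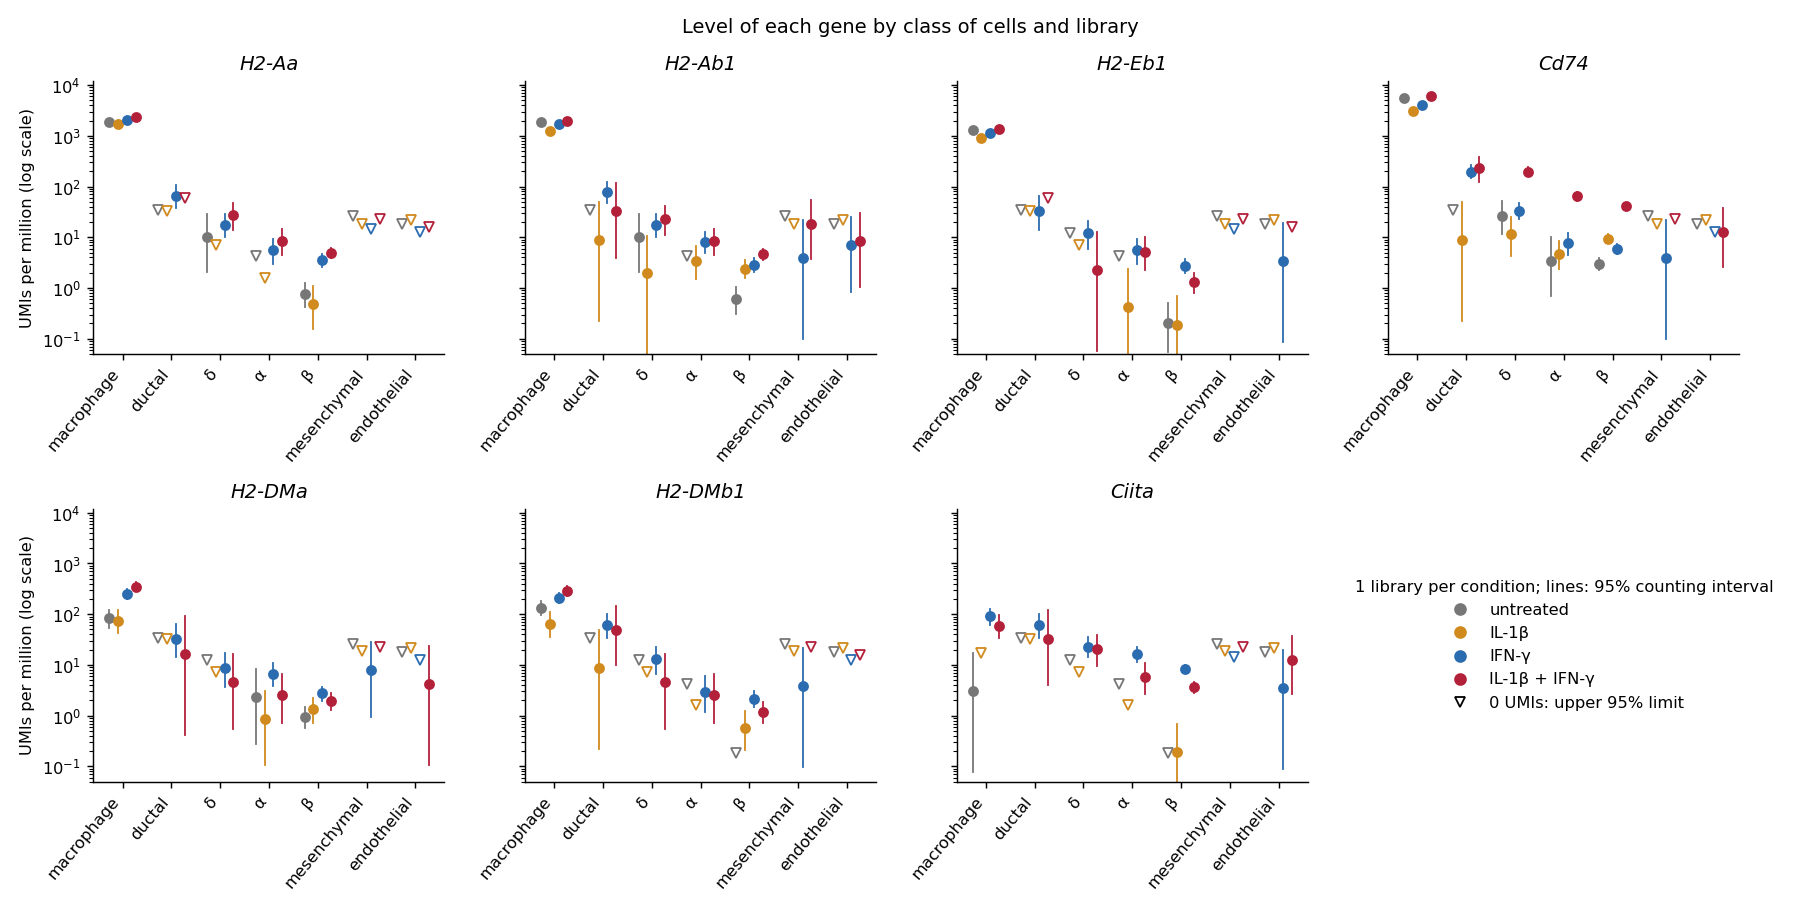
UMIs per 1000000 UMIs of a class (log axis) for each of the 7 genes, by class of cells and library, with 95% counting intervals and open triangles for the upper limit where no UMI was counted. Macrophage-like cells are highest for every gene and library except for Ciita with IL-1β (0 UMIs), and mesenchymal-like and endothelial-like cells hold only 0 to 3 UMIs of any gene in a library.

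In macrophage-like cells the class II chains were high before any cytokine and moved little. Levels are UMIs per 1000000 UMIs of the class (CPM), given for untreated, IL-1β, IFN-γ and IL-1β + IFN-γ in this order. H2-Aa, the α chain of the A molecule, was at 1858, 1715, 2024 and 2372 CPM. H2-Ab1, its β chain, was at 1889, 1270, 1691 and 1980 CPM. H2-Eb1 was at 1323, 904, 1159 and 1354 CPM. All 3 chains were lowest with IL-1β alone. The ratio of IL-1β to untreated was 0.923 for H2-Aa (0.808 to 1.05), 0.672 for H2-Ab1 (0.581 to 0.777) and 0.684 for H2-Eb1 (0.574 to 0.812). With both cytokines H2-Aa was 1.28 times the untreated level (1.14 to 1.43), and the intervals for H2-Ab1 and H2-Eb1 included 1.

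Cd74 had the order of H2-Ab1 and H2-Eb1 across the libraries, with a wider range. It was at 5471, 3013, 4053 and 5990 CPM. Against untreated cells its ratio was 0.551 with IL-1β (0.502 to 0.603), 0.741 with IFN-γ (0.690 to 0.795) and 1.09 with both (1.02 to 1.17). Adding IL-1β to IFN-γ went with a ratio of 1.48 (1.37 to 1.59) over IFN-γ alone, whereas IL-1β alone was below untreated.

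The exchange factor and the transactivator behaved otherwise in the same cells. H2-DMa was at 82.7, 74.96, 253 and 351 CPM, on 27, 16, 86 and 94 UMIs. It was 3.06 times higher with IFN-γ (1.97 to 4.91) and 4.24 times higher with both cytokines (2.74 to 6.77). H2-DMb1 was at 135, 65.6, 212 and 287 CPM, 2.13 times higher with both (1.45 to 3.16) and 0.487 times untreated with IL-1β (0.246 to 0.905). Ciita had 1, 0, 31 and 16 UMIs in 1 of 38, 0 of 38, 18 of 47 and 12 of 31 cells. Its IFN-γ ratio was 29.8, with a counting interval of 4.96 to 1210 because the untreated count was 1. The 2 libraries with IFN-γ thus held all but 1 of the Ciita UMIs of macrophage-like cells, while their chain transcripts were within 1.28 times of the untreated level. Between these libraries the Ciita ratio was 0.654 (0.334 to 1.23), not distinguishable at this depth.

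Among the 7 genes in macrophage-like cells, those at least 2 times higher than untreated were 0 with IL-1β, 2 with IFN-γ (Ciita and H2-DMa) and 2 with both (H2-DMa and H2-DMb1). The shares of all genes with at least 20 UMIs over both libraries that passed this fold were 6.66%, 9.93% and 9.38%. The members that had enough UMIs numbered 6, 7 and 6. H2-DMb1 was at least 2 times lower with IL-1β, as were 5.72% of all genes. Ciita passed the minimum only through the IFN-γ library. It did not reach it with both cytokines.

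Single macrophage-like cells varied widely within each library. Per 10000 UMIs of a cell, the 7 genes together had a median of 82.7 in untreated cells (0 to 527), 67.3 with IL-1β (9.81 to 196), 93.7 with IFN-γ (0 to 231) and 98.2 with both (0 to 318). The ranges between the quartiles overlapped, at 54.8 to 134, 43.5 to 107, 32.5 to 114 and 62.9 to 177, while untreated cells reached the highest value. No UMI of any of the 7 genes was found in 1 untreated cell, 4 cells with IFN-γ and 1 cell with both. Each of these was a shallow cell, with 506 to 1359 UMIs, and every cell of at least 3000 UMIs held a UMI of the group. Cells high in Cd74 were also high in the chains. Pearson's r of Cd74 with H2-Aa over 27, 34, 39 and 28 cells thinned to 3000 UMIs was 0.84, 0.73, 0.70 and 0.92. With H2-Ab1 it was 0.66, 0.56, 0.74 and 0.82, and with H2-Eb1 0.65, 0.70, 0.63 and 0.84. With the complement gene C1qb it was 0.15, 0.08, 0.21 and -0.06, and with Lyz2 0.23, -0.16, 0.07 and -0.49. These are descriptions over cells that share a library and a depth.

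**Figure D2:**
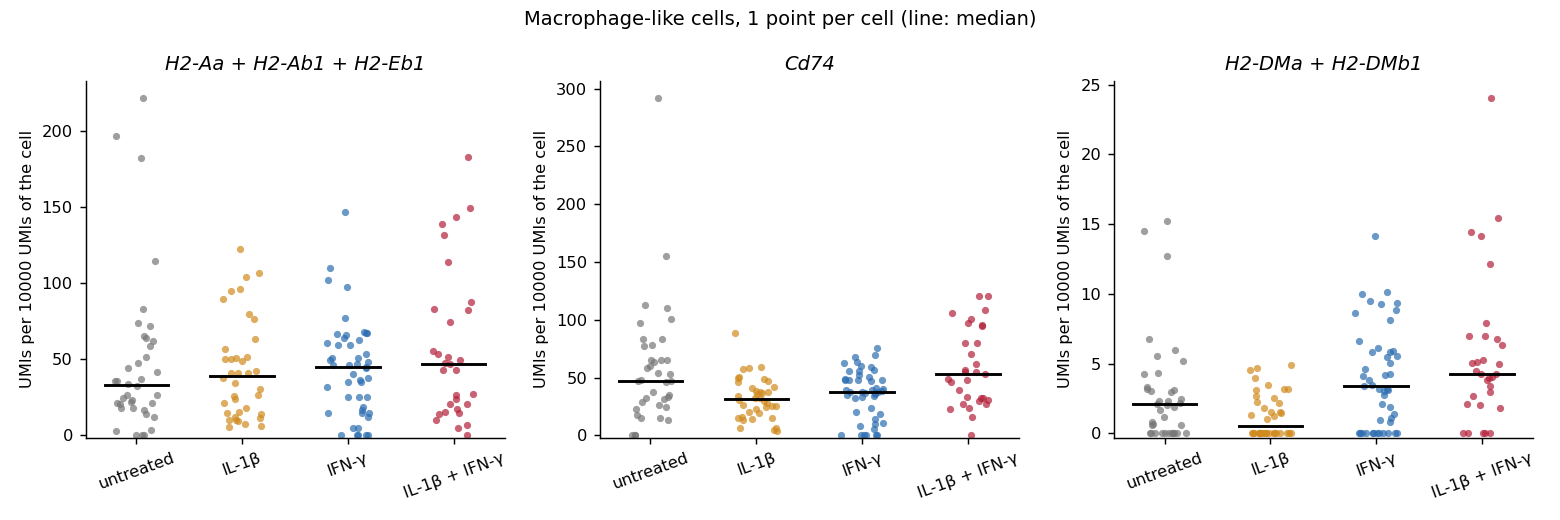
UMIs per 10000 UMIs of a cell for the class II chains, for Cd74 and for the exchange factor chains in macrophage-like cells, 1 point per cell (38 untreated, 38 IL-1β, 47 IFN-γ, 31 IL-1β + IFN-γ) and a line at the median. Chain values overlap across libraries, and the median for Cd74 is 47.3, 31.5, 37.8 and 53.4 in the same order.

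β-like cells gave very few class II UMIs, and IFN-γ went with more of them. Ciita is given first because its counts were the clearest. It had 0, 2, 120 and 58 UMIs, in 0 of 1142, 2 of 1226, 111 of 1312 and 51 of 1298 cells, or 0, 0.190, 8.27 and 3.62 CPM. With a floor of 3 UMIs in the untreated library, Ciita was at least 54.7-fold higher with IFN-γ and at least 23.9-fold higher with both cytokines. The library with both was below the library with IFN-γ alone, at a ratio of 0.437 (0.314 to 0.603).

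The share of β-like cells with a Ciita UMI was 0%, 0.163%, 8.46% and 3.93%, at median depths of 17345.5, 8317, 11003 and 12226.5 UMIs. Thinned to 3000 UMIs per cell, it was 0%, 0.0843%, 2.96% and 0.545%. Endothelial-like cells, at median depths of 5394.5, 4154, 4700 and 10944 UMIs, had a Ciita UMI in 0 of 30, 0 of 36, 1 of 46 and 2 of 25 cells. The endothelial counts are too small to set a background under the β-like shares. A cell with a Ciita UMI in β-like cells mostly held 1 (102 of 111 cells with IFN-γ).

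Cd74 differed in its order from Ciita. It had 59, 98, 86 and 666 UMIs in 22, 79, 64 and 318 β-like cells, or 2.98, 9.31, 5.93 and 41.5 CPM. Of the 59 untreated UMIs, 28 lay in 1 cell. Against untreated cells the ratio was 3.13 with IL-1β (2.24 to 4.40), 1.99 with IFN-γ (1.41 to 2.82) and 13.95 with both (10.7 to 18.5). In cells with no UMI of a macrophage marker the ratios were 1.97, 1.32 and 9.27, which takes IL-1β below 2 times, and with free RNA subtracted (markers without C1qa) that with both was 23.3. The library with both cytokines stood far above the others, 7.01 times IFN-γ alone (5.59 to 8.88) and 4.46 times IL-1β alone (3.60 to 5.57). So between IFN-γ and IL-1β + IFN-γ, Cd74 and Ciita in β-like cells lay on opposite sides of 1.

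The share of β-like cells with a Cd74 UMI was 1.93%, 6.44%, 4.88% and 24.5%, and after thinning 0.617%, 1.94%, 1.87% and 10.0%. In endothelial-like cells 0 of 30, 0 of 36, 0 of 46 and 1 of 25 cells had a Cd74 UMI, where a count of 0, read as a floor of 3 cells, allows shares up to 10.0%, 8.33% and 6.52%. The share with both cytokines was the highest before and after thinning. Among its 318 cells with Cd74, 151 had at least 2 UMIs.

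The class II chains in β-like cells had few UMIs, 78 at most. H2-Aa had 15, 5, 51 and 78 UMIs (0.757, 0.475, 3.52 and 4.87 CPM), 4.65 times untreated with IFN-γ (2.57 to 8.90) and 6.43 times with both (3.67 to 12.03). H2-Ab1 had 12, 25, 41 and 74 UMIs, with ratios of 3.92 for IL-1β (1.90 to 8.57), 4.67 for IFN-γ (2.41 to 9.76) and 7.62 for both (4.11 to 15.4). H2-Eb1 had 4, 2, 40 and 21 UMIs and, as for Ciita, was lower with both cytokines than with IFN-γ alone, at a ratio of 0.475 (0.266 to 0.825). Each chain had more UMIs in either library with IFN-γ than in either without it. The level of H2-Aa in macrophage-like cells was 2455 times that in β-like cells untreated (1477 to 4414), and 488 times with both cytokines (385 to 625).

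The exchange factor had a similar number of UMIs. H2-DMa had 19, 14, 40 and 31 UMIs in β-like cells, 2.88 times untreated with IFN-γ (1.63 to 5.26) and 2.02 times with both (1.10 to 3.78). The value with both turned to 0.500 when free RNA was subtracted by the full macrophage marker list. H2-DMb1 had 0, 6, 31 and 19 UMIs, at least 3.77-fold higher with IL-1β, at least 14.1-fold higher with IFN-γ and at least 7.83-fold higher with both. Both chains were highest with IFN-γ alone, but their intervals for IL-1β + IFN-γ over IFN-γ included 1.

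In β-like cells 4 of the 7 genes had enough UMIs with IL-1β, of which 2 were at least 2 times higher (H2-Ab1 and Cd74). With IFN-γ 6 of 7 were (all but Cd74, at 1.99), and with both 6 of 6 (H2-DMb1 had too few UMIs to enter). Among all genes with at least 20 UMIs, the shares were 17.5%, 6.53% and 11.7%. Only Cd74 had 20 UMIs in the untreated library. Every other member entered only with the UMIs of a treated library, which favours members that are higher there, so these counts are a description. With each cell thinned to 3000 UMIs the members past the fold were 0 of 1 with enough UMIs, 1 of 3 and 2 of 2, and Cd74 with IL-1β was then 1.84 times untreated. The median log2 ratio of all genes counted was 0.36, 0.31 and -0.00, so the IL-1β and IFN-γ ratios stand on a raised baseline. Hormone transcripts took 41.8%, 21.5%, 28.0% and 33.2% of β-like UMIs and stayed in the totals. How the ratios depend on this was not tested.

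The β-like cells of each library lay mostly in a cluster of their own, led by Mafa and Ppp1r1a (92.03% of untreated cells), Il4i1 and Lrg1 (74.4%, IL-1β), F830016B08Rik and Iigp1 (72.0%, IFN-γ) or Nos2 and Cxcl10 (78.1%, both). Within the library with both cytokines, Cd74 was at 46.2 CPM in the Nos2-led cluster, with a UMI in 287 of 1014 cells. In the cluster led by the heat shock gene Hspa1a it was at 5.38 CPM (1.75 to 12.5), in 5 of 93 cells, and in the cluster led by the stress gene Ddit3 at 12.4 CPM (6.39 to 21.6). Median depths were 12684, 10018 and 8872 UMIs. Ciita was likewise lower in the Hspa1a-led cells of the IFN-γ library, at 1.61 CPM (0.194 to 5.80) against 9.01 CPM (7.34 to 10.9) in the Iigp1-led cluster.

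With both cytokines, cells with a Ciita UMI more often had a Cd74 UMI as well, a description over cells of 1 library. Among β-like cells of at least 3000 UMIs in that library, Cd74 was found in 29 of 51 cells with Ciita (56.9%, 42.2 to 70.7%) and in 288 of 1234 without (23.3%, 21.0 to 25.8%). H2-Aa was found in 8 of 51 (15.7%, 7.02 to 28.6%) and 47 of 1234 (3.81%, 2.81 to 5.03%). With IFN-γ alone the Cd74 shares were 8.18% (3.81 to 14.96%) of 110 cells and 4.68% (3.55 to 6.05%) of 1175, whose intervals overlap. Median depths of the cells with and without Ciita were 12926 and 12253 UMIs with both cytokines, and 11652.5 and 11018 with IFN-γ.

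**Figure D3:**
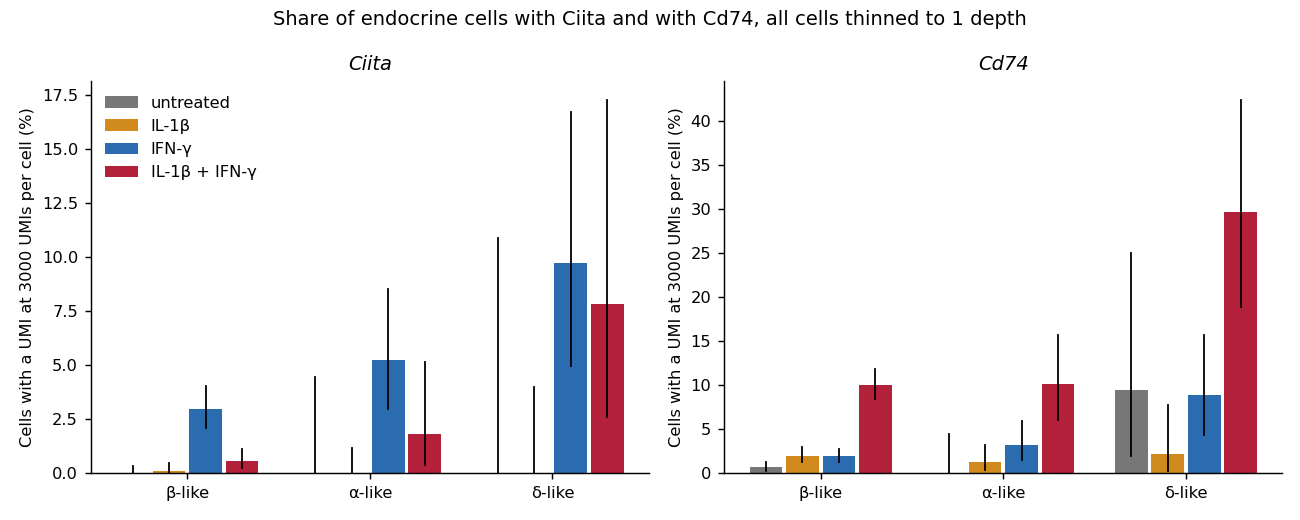
Share of β-like, α-like and δ-like cells (%) with a Ciita or a Cd74 UMI after thinning every cell to 3000 UMIs, by library, with exact 95% intervals. Ciita was highest with IFN-γ alone (2.96% of β-like cells), Cd74 with IL-1β + IFN-γ (10.0%).

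Cd74 was highest with both cytokines in α-like and δ-like cells too. Untreated and IFN-γ cells of each type lay mostly in 1 cluster (led by Ghrl and Gcg for α-like cells, by Sst and Pyy for δ-like cells), and the cells of the libraries with IL-1β in another (led by Hamp and Spp1, and by Sst and 4930539E08Rik). In α-like cells Ciita had 0, 0, 38 and 9 UMIs (0, 0, 16.1 and 5.86 CPM) and was 0.364 times as high with both cytokines as with IFN-γ (0.155 to 0.766). Cd74 had 3, 11, 18 and 99 UMIs (3.44, 4.75, 7.63 and 64.5 CPM), 8.45 times as high with both as with IFN-γ (5.08 to 14.8). In δ-like cells Ciita had 0, 0, 21 and 9 UMIs (22.8 and 20.6 CPM in the libraries with IFN-γ), a ratio of 0.906 (0.365 to 2.06). Thus Ciita was lower with both cytokines in α-like and β-like cells, and not distinguishable in δ-like cells. Cd74 in δ-like cells had 8, 6, 31 and 86 UMIs (26.8, 11.6, 33.6 and 197 CPM), 5.87 times as high with both as with IFN-γ (3.85 to 9.15). Few members had enough UMIs for a fold against untreated cells, and they entered mainly with the UMIs of the treated library, so the calls are a description. In α-like cells Ciita and Cd74 with IFN-γ and Cd74 with both were all at least 2 times higher, beside 9.43%, 6.53% and 9.92% of all genes for IL-1β, IFN-γ and both. In δ-like cells it was Ciita of the same pair with IFN-γ and Cd74 with both, beside 11.2%, 7.22% and 14.0%. No member had enough UMIs with IL-1β in either class.

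In the IFN-γ library δ-like cells were above β-like cells for each of the 7 genes, by 2.75 times for Ciita (1.64 to 4.40) up to 6.13 times for H2-Ab1 (3.21 to 11.2). With both cytokines the δ-like to β-like ratio was 4.74 for Cd74 (3.74 to 5.95), 5.65 for H2-Aa (2.80 to 10.4), 4.96 for H2-Ab1 (2.29 to 9.65) and 5.70 for Ciita (2.48 to 11.6), and the intervals for H2-Eb1, H2-DMa and H2-DMb1 included 1. With IL-1β the Cd74 ratio was 1.25 (0.448 to 2.82). In untreated cells it was 8.997 (3.71 to 18.9), and that of H2-Aa was 13.3 (2.46 to 46.9) and of H2-Ab1 16.6 (3.004 to 61.5), on 3 δ-like UMIs each, so a higher δ-like level was not limited to the libraries with IFN-γ. The α-like to β-like ratio with both cytokines was 1.55 for Cd74 (1.24 to 1.92) and 3.98 for H2-Eb1 (1.52 to 9.35), and the other 5 intervals included 1. With IFN-γ it was 1.95 for Ciita (1.31 to 2.83), 2.85 for H2-Ab1 (1.56 to 5.02) and 2.46 for H2-DMa (1.29 to 4.49), while that of Cd74 included 1. On totals that include hormone UMIs, the order of Cd74 levels with both cytokines was δ-like, α-like and β-like, with intervals of neighbouring ratios clear of 1. Hormone UMIs were 10.7%, 17.0% and 33.2% of these totals. A Cd74 UMI was in 42 of 168 α-like and 318 of 1298 β-like cells. Whether the α-like level stays above the β-like level without hormone UMIs was not tested. Untreated δ-like cells numbered 32, and their Cd74 rests on 8 UMIs in 4 cells.

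The proportion of Cd74 to chain transcripts differed between the libraries with IFN-γ in β-like, α-like and δ-like cells. The UMIs of Cd74 over the summed UMIs of H2-Aa, H2-Ab1 and H2-Eb1 were 0.652 (0.491 to 0.861) under IFN-γ and 3.85 (3.25 to 4.58) under both cytokines in β-like cells. They were 0.400 (0.218 to 0.705) and 2.91 (1.95 to 4.44) in α-like cells, and 0.721 (0.439 to 1.17) and 3.74 (2.34 to 6.21) in δ-like cells. In each of these classes the 2 intervals lay apart. In macrophage-like cells the proportion was 1.08 untreated, 0.775 with IL-1β, 0.832 with IFN-γ (0.774 to 0.894) and 1.05 with both (0.978 to 1.13). Untreated β-like cells were at 1.90 (1.21 to 3.04) and those given IL-1β at 3.06 (2.04 to 4.72), the untreated value resting on the 1 cell with 28 of 59 Cd74 UMIs. With IL-1β and with both cytokines β-like cells thus had more Cd74 per chain transcript than macrophage-like cells. α-like and δ-like cells were above macrophage-like cells with both cytokines, and their untreated and IL-1β counts were too few to place them. With IFN-γ alone only the α-like interval lay below that of macrophage-like cells. UMIs count transcript ends and were not scaled by length.

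Ductal-like cells, few as they were, held the group with IFN-γ at levels above those of β-like cells. Cd74 had 0, 1, 48 and 14 UMIs (0, 8.80, 197 and 230 CPM) in 0 of 23, 1 of 19, 12 of 32 and 3 of 8 cells. Ciita had 0, 0, 15 and 2 UMIs, H2-Aa 0, 0, 16 and 0, and H2-Ab1 0, 1, 19 and 2. Only Cd74 with IFN-γ had enough UMIs for a fold, all of them from that library, and was at least 2 times higher, a description beside 10.1%, 12.5% and 10.6% of all genes for IL-1β, IFN-γ and both. With IFN-γ all 7 genes were detected in them, and the Ciita level (61.4 CPM) was 7.42 times that of β-like cells (4.03 to 12.7). The macrophage-like to ductal-like ratio of Ciita was 1.48 (0.778 to 2.96), not distinguishable from 1, while that of H2-Aa was 30.9 (18.9 to 54.3). The untreated ductal-like cells were shallow, at a median of 1891 UMIs against 9007 with IFN-γ. The summed UMIs of 11 macrophage markers in them were 1, 3, 8 and 5, mostly Cd68, with C1qc, Lyz2 and Tyrobp at 0 in every library.

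Endothelial-like and mesenchymal-like cells gave few UMIs of these genes. Each of the 7 genes had 0 to 3 UMIs per library in them, and none had enough UMIs for a fold in any comparison. The shares of all genes at least 2 times higher were 6.02%, 10.2% and 10.0% in endothelial-like cells and 7.76%, 9.28% and 11.3% in mesenchymal-like cells for IL-1β, IFN-γ and both. Genes induced by IFN-γ were measurable in them. Irf1, whose product acts on the Ciita promoter, was at 48.8, 35.9, 888 and 876 CPM in endothelial-like cells and at 14.1, 10.03, 340.2 and 433 CPM in mesenchymal-like cells. Ciita of endothelial-like cells was 0, 0, 1 and 3 UMIs, the last 2 counts on 46 and 25 cells. A level of Ciita or the chains as low as in β-like cells lies under the floor of 3 UMIs in these classes. Ciita of endothelial-like cells with both cytokines reached that floor, on 3 UMIs, too few to set a level. For Cd74 with both cytokines the depth sufficed. Endothelial-like cells had 3 UMIs (12.7 CPM, 2.62 to 37.1). Mesenchymal-like cells had 0, which is 18.3 CPM by the floor of 3 UMIs and 22.5 CPM by the exact upper limit. Both classes lay below the 41.5 CPM of β-like cells (38.4 to 44.8).

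RNA set free from macrophages can enter other droplets, so the group was set beside macrophage markers in each class. A marker list of 12 genes was used without C1qa, because C1qa was found in 50.6%, 19.1%, 27.7% and 53.3% of β-like cells while C1qb, its partner in the same complex, had 5, 1, 6 and 2 UMIs there. The other 11 markers summed to 98, 158, 118 and 188 UMIs in β-like cells. Most of these came from Cd68 (39, 117, 81 and 124 UMIs) and Fcer1g (30, 35, 18 and 48 UMIs). Cd68 stood at 0.163%, 0.985%, 0.415% and 0.488% of its macrophage-like level and C1qb at no more than 0.00813%, so the numbers below rest on a pair of markers that were high in β-like cells beside the rest. At the ratio to these markers seen in macrophage-like cells of the same library, 25.9, 24.1, 21.0 and 42.0 Cd74 UMIs would come with them, against 59, 98, 86 and 666 counted. For Ciita 0.0145, 0, 0.474 and 0.419 UMIs would come, against 0, 2, 120 and 58. In β-like cells with none of the 11 markers, Cd74 had 48, 83, 80 and 600 UMIs, and 24.7% of such cells with both cytokines had one. For H2-Aa the marker ratio gives 8.78, 13.7, 10.5 and 16.7 UMIs against 15, 5, 51 and 78, so its IL-1β count lies below that number and its counts in the libraries with IFN-γ above it. With C1qa kept in the list the ratio gives 334, 72.1, 105 and 433 Cd74 UMIs, above the counted number in the untreated and IFN-γ libraries.

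**Figure D4:**
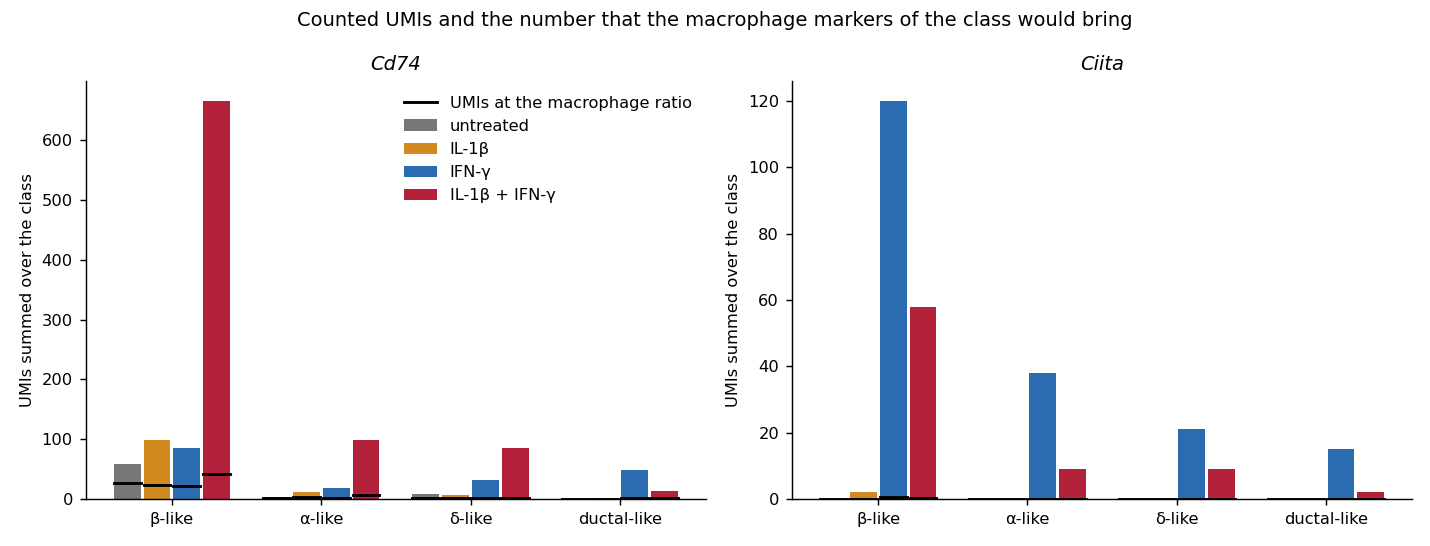
UMIs of Cd74 and Ciita summed over β-like, α-like, δ-like and ductal-like cells (bars, by library) and the number that 11 macrophage markers of the class would bring at the ratio of macrophage-like cells (black lines). The Cd74 bar of β-like cells with both cytokines stands at 666 over a line at 42.0, and the Ciita lines lie under 1.

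Irf1 and Socs1 were at least 2 times higher with IFN-γ in macrophage-like, endothelial-like, mesenchymal-like, ductal-like, β-like, α-like and δ-like cells, where 6.53% to 12.5% of all genes passed this fold. Here and in the lists below, some genes reached the minimum of 20 UMIs only with those of a treated library. Socs1 in β-like cells and Irf1 in endothelial-like and mesenchymal-like cells were among them. This favours genes that are higher there, so the counts are a description. Of 8 genes of IFN-γ signaling to Ciita, 4, 4 and 6 were at least 2 times higher in β-like cells for IL-1β, IFN-γ and their combination (17.5%, 6.53% and 11.7% of all genes), and none was lower. In macrophage-like cells they were 0 of 5 with enough UMIs, 2 of 8 and 3 of 7 (6.66%, 9.93% and 9.38% of all genes). In endothelial-like cells they were 0 of 4, 4 of 8 and 3 of 7 (6.02%, 10.2% and 10.0%). Ifngr2, a receptor chain, was at least 2 times lower there with IFN-γ and with both. That is 1 of 8 and 1 of 7, near the 9.29% and 14.3% of all genes that were lower. Irf1 in β-like cells was at 20.2, 40.3, 207 and 334 CPM, higher with both than with IFN-γ at a ratio of 1.62 (1.55 to 1.69). Socs1, which restrains IFN-γ signaling, was at 0.757, 9.22, 37.1 and 101 CPM, 2.72 times higher with both than with IFN-γ. Ifngr2 was at 5.50, 58.4, 5.17 and 51.6 CPM, high in the libraries with IL-1β.

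The factors that hold the X and Y boxes were counted next. All 7 of them (Rfx5, Rfxap, Rfxank, Nfya, Nfyb, Nfyc and Creb1) had enough UMIs in β-like cells, and Rfx5 alone was at least 2 times higher, in each treated library. For 1 of 7 genes this is no more than the share of all genes with IL-1β (17.5%) and near that with both (11.7%), against 6.53% with IFN-γ. It was at 7.07, 14.2, 16.4 and 19.0 CPM, with ratios of 2.005 (1.58 to 2.54), 2.32 (1.88 to 2.88) and 2.68 (2.19 to 3.30). In α-like cells Rfx5 alone was past the fold, with both cytokines (1 of 5 with enough UMIs, 9.92% of all genes). In δ-like cells 2 of 5 were with IFN-γ (Rfx5 and Nfyc, 7.22% of all genes) and 2 of 4 with both (Rfx5 and Rfxap, 14.0%), on 2 untreated UMIs for Rfx5. In mesenchymal-like cells it was Rfxap with both, 1 of 1 (11.3%). In macrophage-like cells at most 2 of the 7 had enough UMIs, and neither moved past the fold. The other class II molecules measured, H2-Eb2, H2-DMb2, H2-Oa and H2-Ob, had too few UMIs for a fold in every class.

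Class II peptide loading also needs proteases. Ctss, the cathepsin that trims the invariant chain in macrophages and dendritic cells, was at 3711, 4699, 4636 and 4352 CPM in macrophage-like cells. In β-like cells it had 5, 2, 4 and 8 UMIs. α-like cells had 1, 0, 0 and 2 and δ-like cells none. Ctss was not counted apart in the cells with a Cd74 UMI. Ctsb, another lysosomal cathepsin, was measured throughout, at 164, 573, 280 and 511 CPM in β-like cells. Of 6 processing genes measured, 5 had enough UMIs in β-like cells, of which 3 were at least 2 times higher with IL-1β (Ctsl, Ctsb and Lgmn), 0 with IFN-γ and 2 with both (Ctsb and Lgmn), beside 17.5%, 6.53% and 11.7% of all genes. In macrophage-like cells it was 1 of 6 (Ctsl, with IL-1β, beside 6.66%).

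Costimulation was seen in macrophage-like cells. Cd86, which engages CD28 on T cells, was at 116, 234, 291 and 295 CPM, at least 2 times higher in each treated library (2.01, 1.29 to 3.16, with IL-1β). March1, the ligase that removes class II molecules and CD86 from the surface, was at 36.7, 84.3, 103 and 101 CPM. Both genes, the 2 of this list with enough UMIs, were at least 2 times higher in every treated library, beside 6.66%, 9.93% and 9.38% of all genes. March1 had 12 untreated UMIs and entered only with those of a treated library, which favours a higher value there. Its ratio with IL-1β was 2.30 (1.05 to 5.22). Neither had enough UMIs for a fold in β-like cells. Of the 4 genes of this list, Cd80 and March8 had too few UMIs in macrophage-like cells. March8 alone had enough in β-like, α-like and δ-like cells. It was past the fold only in δ-like cells with both cytokines (2.05, 1.07 to 4.19), beside 14.0% of all genes.

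Class I genes were counted for comparison. Nlrc5, the transactivator of class I genes and a relative of CIITA, had 4, 22, 298 and 415 UMIs in β-like cells (0.202, 2.09, 20.5 and 25.9 CPM). Unlike Ciita in these cells, it was not lower with both cytokines than with IFN-γ, at a ratio of 1.26 (1.08 to 1.47). In macrophage-like cells it was lower, at 0.398 (0.183 to 0.803) on 11 and 35 UMIs. B2m, the light chain of class I molecules, was at 197, 321, 447 and 744 CPM in β-like cells, 3.77 times untreated with both (3.63 to 3.91). In endothelial-like cells, where the class II group was near 0, B2m was 2.22 times untreated with IFN-γ (1.95 to 2.53) and H2-K1, a class I heavy chain, 2.16 times (1.85 to 2.53). H2-D1, another heavy chain, was at 1.31 times (1.14 to 1.495).

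Other genes shared these patterns. Over 24 values (6 classes in 4 libraries, log2 of CPM + 10), the 5 genes most like Cd74 among 13048, members left out, were Cybb, Plcg2, Cd68, Mpeg1 and C1qa, with Pearson's r from 0.958 to 0.955. Those most like H2-Ab1 were Mpeg1 (r = 0.994), Cybb, C1qb, Csf1r and Trem2. Both lists hold genes of macrophages. Of the members, H2-Aa (r = 0.979) and H2-Ab1 (r = 0.965) stood above Cybb in likeness to Cd74, and H2-Aa (r = 0.990) and H2-Eb1 (r = 0.987) above Cybb in likeness to H2-Ab1. Those most like Ciita were Gdap10 (r = 0.853), 9330175E14Rik, Ifit1bl1, Gm5431 and Serpina3g. Over the 12 values of β-like, α-like and δ-like cells the lists changed. The genes most like Cd74 were then Arhgap8 (r = 0.955), C1ra, Ppme1, Batf2 and Rnf135, and those most like Ciita were Tgtp2 (r = 0.978), Apol9b, 9330175E14Rik, Flt3l and Apol9a. Over these 12 values Ciita had r = 0.918 with H2-DMa, 0.840 with H2-Eb1 and 0.551 with Cd74. The genes most like H2-Ab1 were Gm4117 (r = 0.968), Mov10, Atp11b, Cxxc1 and Zfp128, and the member H2-Aa had r = 0.966. The points share libraries and depth, and the values are descriptions.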

How the data were processed

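The deposited files hold raw UMI counts per gene and barcode, made by the authors with Cell Ranger on mm10, per the submitters' processing notes (matrix header software version 3.0.0). The counts were used as deposited. The study's limits were applied to barcodes, from 200 to 4000 detected genes and no more than 12% mitochondrial UMIs. Cells were clustered in scanpy 1.11.5 (2000 variable genes, 30 components, 20 neighbours, Leiden at a resolution of 1; the study used Louvain) without 43 genes of the pathway, and clusters were named from marker genes. Endocrine cells were typed by a hormone holding at least 70% of hormone UMIs; 418 of 6712 lay between 60% and 80%. Doublets were kept, and the 106 cells that Scrublet marked were left out in an alternative. Levels are summed UMIs per 1000000 UMIs of the class (CPM) with exact Poisson intervals, shares carry Clopper-Pearson intervals, and ratios carry conditional binomial intervals, all for counting error. A floor of 3 UMIs replaced a count of 0. With 1 library per condition no test was possible, and the fold code was checked on simulated counts. Named genes were all 7 members, 36 pathway genes in fixed lists (1 is not reported here) and the 5 genes most like Cd74, H2-Ab1 and Ciita. The group of genes and the lists were chosen with earlier results of these data known. Near-identical genes (H2-DMb1 and H2-DMb2, H2-K1 and H2-D1) can share reads, and how these were counted is uncertain. Ifi30 was not analysed here. The animals of a pool cannot be told apart.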

Additional observations from a re-analysis of the deposited data

Results flagged for a closer look

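Of the ratios to untreated cells, 4 lay clear of 1 in opposite directions in macrophage-like and β-like cells under the same comparison. H2-Ab1 with IL-1β against untreated was 0.672 in macrophage-like cells and 3.92 in β-like cells. Cd74 with IL-1β was 0.551 and 3.13, and Cd74 with IFN-γ was 0.741 and 1.99. H2-DMb1 with IL-1β was 0.487 in macrophage-like cells and at least 3.77-fold higher in β-like cells, on 6 UMIs against 0. With 1 library per condition, the difference between the cell types was not tested. In β-like cells the H2-Ab1 value rests on 12 untreated and 25 IL-1β UMIs, and 28 of the 59 untreated Cd74 UMIs lay in 1 cell.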

How the results depend on the processing

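No paired analysis was possible because each condition has 1 library. No level or ratio left its counting interval with a limit of 20% mitochondrial UMIs, without called doublets or at a clustering resolution of 2. The same held for macrophage-like cells with under 2% hormone UMIs. At a resolution of 2 the count of genes past the fold in mesenchymal-like cells with IL-1β went from 214 to 318. A setting meant to leave hormone genes out of the totals removed none of them, so that dependence was not tested. Over all settings, that one included, 114 of 2072 levels and 41 of 565 ratios moved outside their intervals. Of the ratios with an interval clear of 1, 2 changed sides of 1. With every cell thinned to 3000 UMIs, Cd74 in macrophage-like cells was 0.844 (IFN-γ over untreated) and 1.21 (both over untreated), Cd74 in β-like cells was 1.84 with IL-1β, Ciita in β-like cells was 0.179 (both over IFN-γ), and H2-DMa in macrophage-like cells turned from 1.39 to 0.890 (both over IFN-γ). Without the upper limit on detected genes, Cd74 in macrophage-like cells was 0.610 with IL-1β and 0.828 with IFN-γ. In β-like cells with no UMI of any of 12 macrophage markers, C1qa among them, Cd74 was 1.97, 1.32 and 9.27 against untreated and Ciita 0.608 (both over IFN-γ). With free RNA subtracted, Cd74 with both cytokines was 23.3 (without C1qa), and H2-DMa in β-like cells with both turned from 2.02 to 0.500 (with C1qa). The cause was not tested. The alternatives without C1qa and that on hormone UMIs were chosen after seeing the data. Counts of genes at least 2 times higher than untreated (IL-1β, IFN-γ, both) fell with a minimum of 50 UMIs to 73, 177 and 162 in macrophage-like, 49, 204 and 182 in endothelial-like and 84, 108 and 119 in mesenchymal-like cells. Thinned, they were 138, 219 and 172, then 100, 259 and 176, then 114, 124 and 122. Without the upper limit they were 365 (IL-1β) in macrophage-like, 336 (IL-1β) in endothelial-like and 509, 653 and 517 in mesenchymal-like cells, and with types from markers in each cell 180 in mesenchymal-like cells with both. With a pseudocount of 1 CPM the 6 lists of genes most like a member changed. Depth limits the chains in β-like cells and, apart from Cd74 with both cytokines, the genes in endothelial-like and mesenchymal-like cells.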
